A study of Drosophila melanogaster with 6 samples.

Results

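The subunits of respiratory complexes III and IV and of ATP synthase were examined in larvae of Drosophila melanogaster reared on a diet alone or with palm fruit juice. Genes were taken by symbol: all array rows with exactly 1 gene whose symbol starts with UQCR-, COX or ATPsyn, together with RFeSP, Cyt-c1, Cyt-c-p, Cyt-c-d, levy, cype and blw. This gave 44 of the 13402 genes with a row of their own, each with 1 row. They were 6 genes of complex III, 12 of complex IV, 12 of ATP synthase and 14 paralogs whose symbol ends in L or in L and a digit. Of the 12 genes of complex IV, 9 are nuclear and 3, COX1, COX2 and COX3, lie in the mitochondrial genome. Cyt-c-p, Cyt-c-d, UQCR-C1, UQCR-C2 and COX7CL were not analysed here, and the row of COX6B also stood for CG18809 and was not used.

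All larvae were of the strain w1118, and whole-body RNA was taken at 5 days of age. Control larvae were reared from the egg on a semi-purified diet alone and juice larvae on that diet with palm fruit juice added. There were 3 arrays a group, each of RNA pooled from 3 to 4 larvae whose sex the labels do not give. Values are log2 expression values as deposited, and a difference is the mean of the juice arrays minus the mean of the control arrays.

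Complex III passes electrons from ubiquinol to cytochrome c, and complex IV passes them on to oxygen. Both move protons out of the mitochondrial matrix, and ATP synthase lets the protons back and makes ATP. The catalytic centres of complexes III and IV and the proton channel of ATP synthase are made in part from mitochondrial genes, while most other subunits are nuclear. In Drosophila several nuclear subunit genes have a second copy used mainly in the male germ line, which is usually named after the first with an L for "like".

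Control replicate 1 and juice replicate 2 stood apart from the other arrays. In them 536 and 440 of the 10051 tested genes lay at least 1 log2 unit away from the average of the remaining 5 arrays; for the other arrays this held for 54 to 178 genes. Of 12 listed marker genes of larval organs, 7 had a row of their own. Of these, 6 were above the filter on dim genes, among them the fat body genes Lsp2, Fbp1 and Fbp2. The midgut protease lambdaTry was not, at 2.36 in both groups. A lower juice mean was seen in 6 of the 7, against 55.1% of all tested genes. In Fbp1, Fbp2 and Sgs3 every juice array lay below every control array, as in 5.08% of tested genes.

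The subunits other than the L paralogs lay higher in juice larvae as a group, but no gene passed the test. A higher juice mean was seen in 29 of 30, against 44.9% of all tested genes. The median log2 difference was 0.52 in complex III, 0.37 in complex IV and 0.30 in ATP synthase, against -0.03 over all tested genes. Of the L paralogs, 4 of 14 had a higher juice mean, and their median difference was -0.09. Across all tested genes limma called 0 at adjusted p under 0.05 (0% of 10051), so 0 of the 39 tested members passed. Their smallest adjusted p was 0.931. At unadjusted p under 0.05, limma gave 8 of the 39 tested members, all higher and all subunits other than L paralogs, where 2.68% of all tested genes were higher and 4.68% were at that p in either direction. Every juice array lay above every control array in 13 of the 30 subunits, against 4.96% of tested genes. No subunit had every juice array below every control array, as 5.08% of tested genes did. In RNA of whole larvae, a change in the number of cells of a type and a change in RNA per cell cannot be told apart.

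The count at unadjusted p depended on single arrays. It was 4 without control replicate 1, 5 without control replicate 2, 3 without control replicate 3, 3 without juice replicate 1, 2 without juice replicate 2 and 12 without juice replicate 3. All members counted were higher. Of all 10051 tested genes, 269 were higher at unadjusted p under 0.05 (limma) with every array used. In the order above, they numbered 196, 266, 119, 412, 176 and 332. Leaving out control replicate 1 and juice replicate 2 together also gave 2 members, beside 175 of all tested genes. The median differences of the 3 complexes stayed above 0 in each of these settings, and subunits of these complexes vary together, so the counts are not independent of each other.

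**Figure D1:**
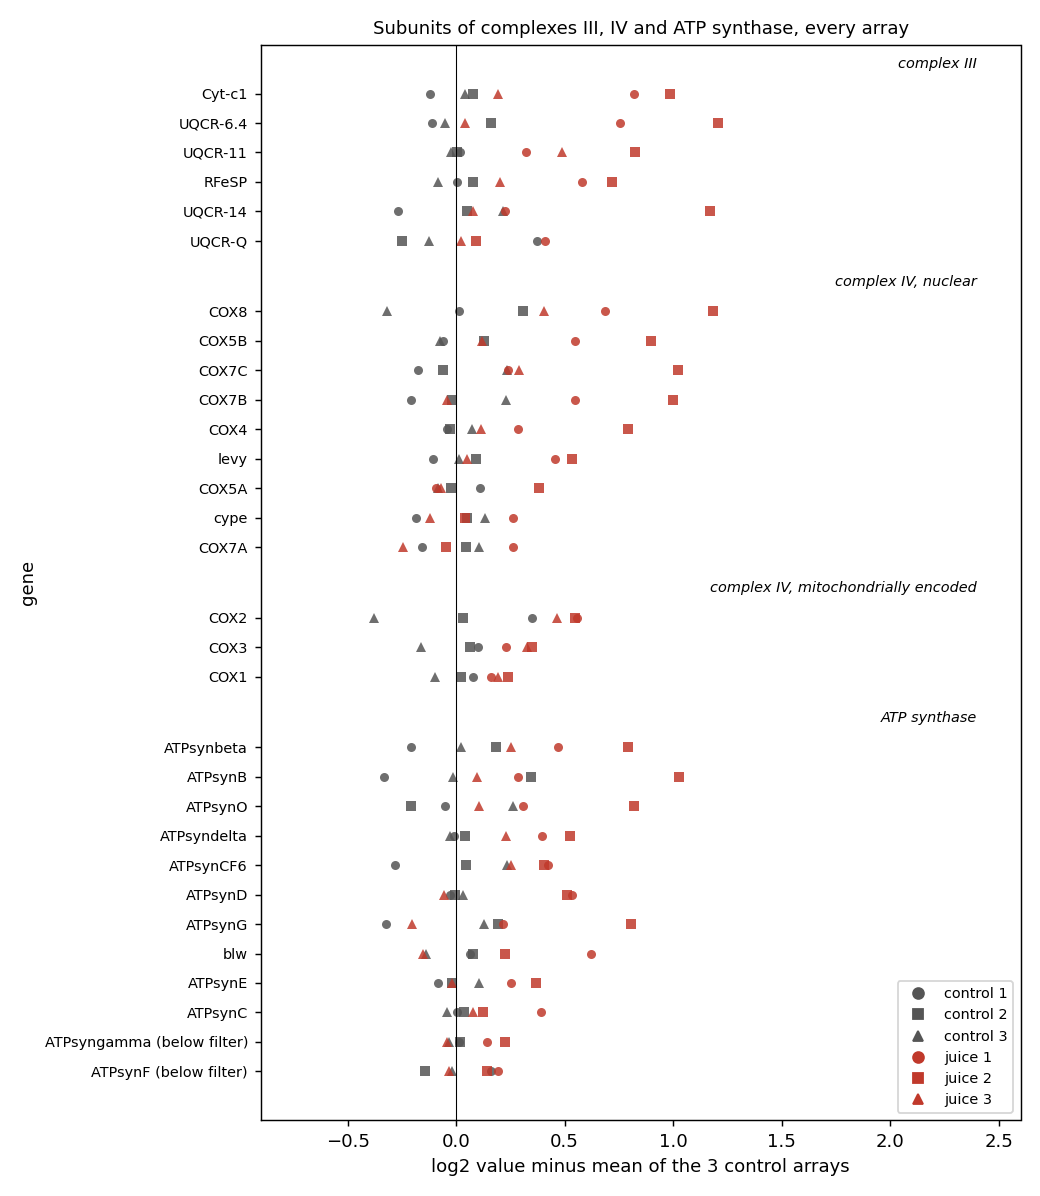
Log2 value of each of 30 subunits in every array, relative to the mean of the 3 control arrays, with controls in grey and juice arrays in red. Juice replicate 2 was the highest array in 21 of the 30 genes and juice replicate 1 in the other 9, while juice replicate 3 lay at or below the highest control array in 17.

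The juice arrays contributed unequally. Juice replicate 1 lay above every control array in 28 of 30 subunits and juice replicate 2 in 26, whereas juice replicate 3 did so in 13. Among all tested genes these shares were 18.3%, 34.5% and 29.2%. Juice replicate 3 was the lowest juice array in 25 of the 30, and juice replicate 2 lay above it in 30 of 30. Juice replicate 2 was the highest of all arrays in 21 subunits and juice replicate 1 in 9. The lowest array was control replicate 1 in 13 subunits and control replicate 3 in 9.

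Complex III was represented by 2 of its electron carriers and 4 small nuclear subunits, and 6 of 6 had a higher juice mean. Cytochrome c1, encoded by Cyt-c1, hands electrons to soluble cytochrome c. Its gene measured 7.36, 7.56 and 7.52 in control replicates 1 to 3 and 8.30, 8.46 and 7.67 in juice replicates 1 to 3. The groups did not overlap, but juice replicate 3 stood only just above the controls. The log2 difference was 0.67 (95% interval 0.15 to 1.19; limma's adjusted p = 0.931), a 1.59-fold ratio.

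RFeSP encodes the Rieske iron-sulfur protein, which takes the first electron from ubiquinol. It measured 7.42, 7.49 and 7.33 in the controls and 7.99, 8.13 and 7.61 in the juice arrays, with no overlap and the same order of juice arrays as in Cyt-c1. The difference was 0.50 (0.10 to 0.90; limma's adjusted p = 0.931).

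Among the small subunits, UQCR-11, the counterpart of the mammalian hinge protein, measured 4.89, 4.87 and 4.85 in the controls, a spread of 0.02 (SD, n = 3). In the juice arrays it measured 5.19, 5.69 and 5.36. It was the member with the smallest unadjusted p (limma, 0.0121), with a difference of 0.54 (0.16 to 0.93) and an adjusted p of 0.931. Unlike Cyt-c1 and RFeSP, its lowest juice array was replicate 1. UQCR-6.4 had a difference of 0.67, as large as that of Cyt-c1, but a wider interval (-0.01 to 1.34). It measured 3.57, 3.84 and 3.63 in the controls and 4.43, 4.88 and 3.72 in the juice arrays, so that juice replicate 3 fell inside the control range.

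UQCR-14 measured 5.30, 5.62 and 5.78 in the controls and 5.79, 6.73 and 5.64 in the juice arrays. Its difference of 0.49 was carried by juice replicate 2 and was 0.15 without that array. UQCR-Q showed the smallest difference of the complex, 0.18 (-0.31 to 0.66). It measured 7.49, 6.87 and 6.99 in the controls and 7.52, 7.21 and 7.14 in the juice arrays, and control replicate 1 stood just below the highest juice array. Cytochrome b, the mitochondrially encoded centre of the same complex (CYTB), measured 10.65, 10.45 and 10.16 in the controls and 10.66, 10.80 and 10.72 in the juice arrays. Its groups did not overlap, and the difference was 0.31 ± 0.16 (SE; limma's adjusted p = 0.931).

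In complex IV the nuclear subunits were uneven. Of 9, 8 had a higher juice mean, with differences from -0.01 to 0.76 and a median of 0.40. COX8, a small subunit of the inner membrane, had the largest difference of all 44 genes, 0.76 (0.17 to 1.34; limma's adjusted p = 0.931), a 1.69-fold ratio. It measured 7.31, 7.60 and 6.98 in the controls and 7.98, 8.48 and 7.70 in the juice arrays, with no overlap between the groups. With 1 array left out its difference ran from 0.54 to 0.94.

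COX5B, a zinc-binding subunit on the matrix side, measured 7.45, 7.64 and 7.43 in the controls and 8.05, 8.40 and 7.62 in the juice arrays. Juice replicate 3 fell just below control replicate 2, and the difference was 0.52 (0.02 to 1.02; limma's adjusted p = 0.931). COX7C had nearly the same difference, 0.52 (-0.05 to 1.08). It measured 4.82, 4.94 and 5.23 in the controls and 5.24, 6.02 and 5.29 in the juice arrays. Its groups did not overlap, but juice replicate 1 and control replicate 3 all but touched. COX7B differed by 0.50 (-0.14 to 1.14), COX4 by 0.40 and levy, the gene of subunit 6A, by 0.35.

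Of these, COX4 measured 4.52, 4.53 and 4.64 in the controls and 4.85, 5.36 and 4.68 in the juice arrays. Its groups did not overlap, and without juice replicate 2 its difference was 0.20. The gene levy measured 7.38, 7.58 and 7.50 in the controls and 7.94, 8.02 and 7.54 in the juice arrays, with juice replicate 3 inside the control range. The other 3 nuclear subunits lay close to 0. COX5A differed by 0.07 and cype, the gene of subunit 6C, by 0.06 (-0.32 to 0.44). COX7A was the only subunit with a lower juice mean, by -0.01 (-0.42 to 0.40), and its sign turned to 0.01 after quantile normalization and to 0.04 with equal array medians.

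COX7A measured 6.01, 6.21 and 6.27 in the controls and 6.43, 6.12 and 5.92 in the juice arrays. The cype row gave 3.62, 3.85 and 3.93 in the controls and 4.06, 3.84 and 3.68 in the juice arrays. In both genes juice replicate 1 was the highest array and juice replicate 3 lay below 2 or more controls. An absent difference is not shown by these intervals, which reach 0.40 and 0.44.

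The 3 mitochondrially encoded subunits form the catalytic core of complex IV, with the haem and copper centres in COX1 and COX2. In all 3 every juice array lay above every control array, as in 4.96% of tested genes, though by small amounts. COX2 measured 10.47, 10.15 and 9.74 in the controls and 10.68, 10.67 and 10.58 in the juice arrays, a difference of 0.52 (0.05 to 0.99; limma's adjusted p = 0.931). The SD was 0.05 among its juice arrays and 0.36 among its controls (n = 3 each). Without control replicate 3 the difference was 0.33 and without control replicate 1 it was 0.70.

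COX3 measured 11.21, 11.17 and 10.94 in the controls and 11.34, 11.45 and 11.43 in the juice arrays, a difference of 0.30 (-0.02 to 0.63). COX1 measured 11.89, 11.84 and 11.72 and then 12.01 on average in the juice arrays, at 11.98, 12.06 and 12.01, a difference of 0.20 (-0.10 to 0.50). These values lie near the top of the deposited scale, whose highest value was 12.97. Their pattern over arrays was not that of the nuclear subunits. Relative to all arrays, the mean of the 3 genes was 0.16 in juice replicate 3, where the 9 nuclear subunits averaged -0.12. Control replicate 3 was the lowest array in 3 of 3 mitochondrially encoded subunits and in 2 of 9 nuclear ones. This difference in pattern was not tested.

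Of the 9 other mitochondrially encoded subunits with a row of their own, 9 had a higher juice mean, with a median of 0.54, and control replicate 3 was the lowest array in 8. Every juice array lay above every control array in 7 of the 9, against 4.96% of tested genes. Juice replicate 2 exceeded juice replicate 3 by a median of 0.35 in them and by 0.05 in COX1, COX2 and COX3. ND3 departed from the others: it measured 3.89, 4.12 and 4.25 in the controls and 4.58, 5.37 and 4.16 in the juice arrays, with control replicate 1 the lowest and juice replicate 3 inside the control range. The ATP synthase subunit genes ATP8 and ATP6 differed by 0.60 ± 0.19 and 0.28 ± 0.18 (SE), and ND1 and ND5 of complex I by 0.58 ± 0.16 and 0.53 ± 0.18 (limma's adjusted p = 0.931 for each). ATP8 measured 6.36, 6.41 and 5.96 in the controls and 6.89, 7.03 and 6.60 in the juice arrays. ATP6 measured 9.43, 9.38 and 8.998 and then 9.41, 9.78 and 9.44, where juice replicate 1 fell inside the control range. Transcripts of this genome are made together as long precursors, so its genes, COX1, COX2 and COX3 among them, are not separate observations.

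**Figure D2:**
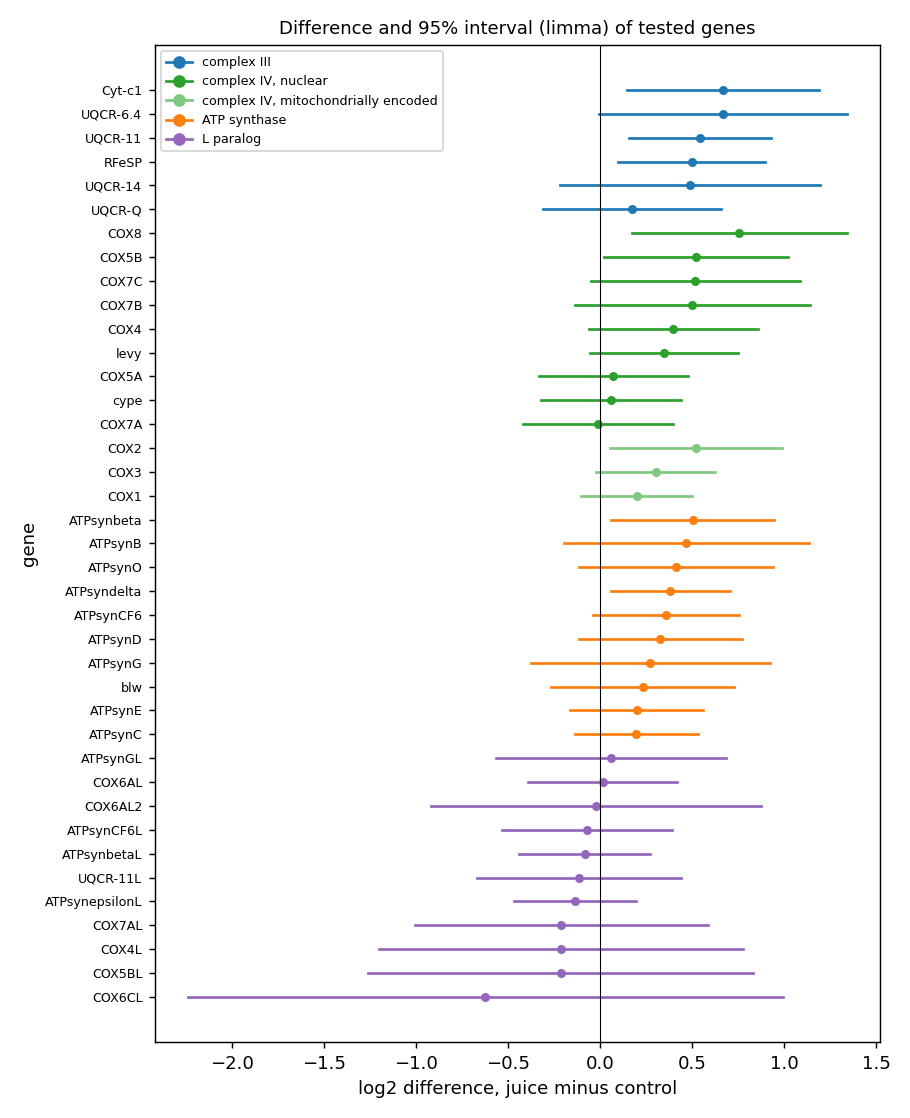
Log2 difference between juice and control means of the 39 tested members, with limma's 95% interval, coloured by complex. Intervals of 8 genes lie wholly above 0, and no interval lies wholly below it; the intervals of the L paralogs COX4L, COX5BL and COX6CL are the widest.

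ATP synthase was represented by 12 nuclear genes, all with a higher juice mean, at differences of 0.10 to 0.50. The F1 head and its central stalk, which make ATP, were covered by blw (alpha), ATPsynbeta, ATPsyngamma and ATPsyndelta, with a median difference of 0.31. The 8 genes of the membrane part and the side stalk had a median of 0.30. ATPsynbeta, the gene of the catalytic subunit, had the largest difference of the complex. It measured 8.98, 9.37 and 9.21 in the controls and 9.66, 9.98 and 9.44 in the juice arrays, a difference of 0.50 (0.06 to 0.95; limma's adjusted p = 0.931) with no overlap.

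ATPsyndelta, a subunit of the central stalk, was among the most even. It measured 10.20, 10.25 and 10.18 in the controls and 10.60, 10.73 and 10.44 in the juice arrays. The groups did not overlap, and with 1 array left out the difference of 0.38 ran from 0.31 to 0.46. Its adjusted p was 0.931 (limma). The alpha subunit gene blw, whose product shares the head with the beta subunit, differed less, by 0.23 (-0.27 to 0.73). It measured 8.67, 8.69 and 8.47 in the controls and 9.23, 8.84 and 8.45 in the juice arrays, with juice replicate 1 the highest and juice replicate 3 below every control.

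In the side stalk, which holds the head still, ATPsynO measured 5.77, 5.61 and 6.08 in the controls and 6.13, 6.64 and 5.93 in the juice arrays. Its difference of 0.41 was 0.21 without juice replicate 2. ATPsynB differed by 0.47 (-0.20 to 1.14) and ATPsynD by 0.33 (-0.11 to 0.77). ATPsynCF6 measured 2.70, 3.02 and 3.21 in the controls and 3.40, 3.38 and 3.23 in the juice arrays, a difference of 0.36 (-0.04 to 0.76) with no overlap. ATPsynC, whose product forms the rotating membrane ring, differed by 0.20 with no overlap between the groups, and ATPsynE by 0.20. ATPsynG measured 2.32, 2.83 and 2.76 in the controls and 2.85, 3.44 and 2.44 in the juice arrays, a difference of 0.27 (-0.38 to 0.92). It turned to -0.15 without control replicate 1 and juice replicate 2.

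The rows of ATPsyngamma and ATPsynF were among the dimmest 25% of genes and were not tested. ATPsyngamma measured 2.39 ± 0.03 in control and 2.50 ± 0.14 in juice larvae (SD, n = 3). ATPsynF measured 2.54, 2.24 and 2.36 in the controls and 2.57, 2.52 and 2.35 in the juice arrays. A dim row describes its probes and does not show that the transcript was scarce.

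The order of the median differences, complex III above complex IV above ATP synthase, was the same with all arrays and with each array left out, but the difference between complexes was not tested. The median ran from 0.39 to 0.67 in complex III, from 0.25 to 0.52 in complex IV and from 0.22 to 0.44 in ATP synthase. In each complex it was lowest without juice replicate 2 and highest without juice replicate 3. Without control replicate 1 and juice replicate 2 the medians were 0.40, 0.19 and 0.19.

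**Figure D3:**
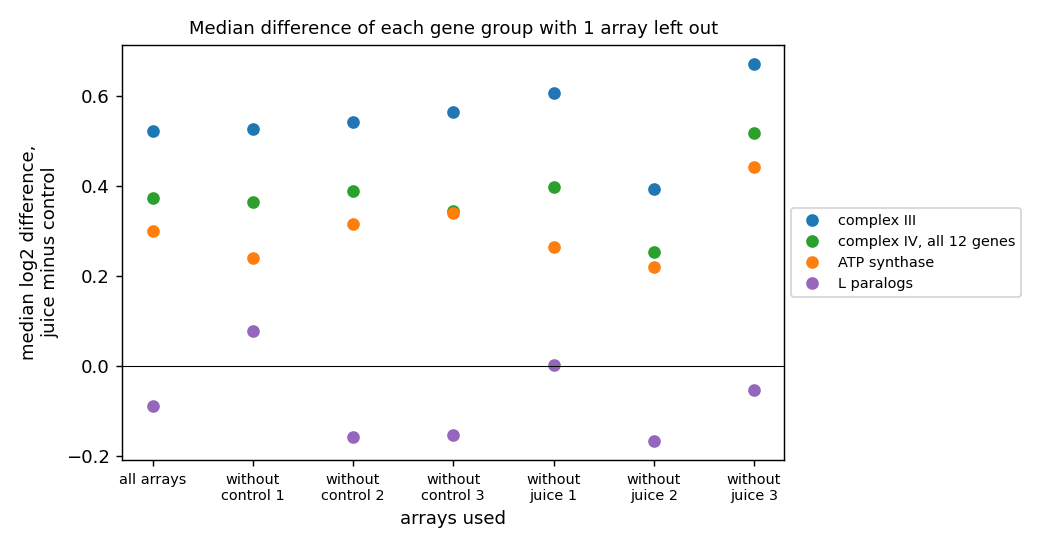
Median log2 difference of the genes of each complex and of the L paralogs with all arrays and with each array left out in turn. The 3 complexes stay above 0 in all 7 sets of arrays, while the L paralogs reach 0.08 without control replicate 1.

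The 14 L paralogs had a median range between arrays of 0.67, against 0.62 over all tested genes and 0.79 in the 30 subunits. A lower juice mean was seen in 10 of 14, against 55.1% of all tested genes. Of 11 tested, 0 were at unadjusted p under 0.05 (limma), near the 4.68% of all tested genes at that p. For 13 of them the counterpart named without the L was also measured, and levy and COX7A each served in a pair of pairs. In 12 of these 13 pairs the difference of the paralog was the lower of the pair, and in 10 pairs both genes were tested. The counterparts belong to the subunits, of which 29 of 30 had a higher juice mean. A gene at the median of all tested genes, -0.03, would also be the lower in most pairs, so this count says little about the paralogs. The direction of the median of the L paralogs depended on the arrays: leaving out control replicate 1 gave 0.08, and leaving out juice replicate 1 gave 0.002.

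COX6CL varied most. It measured 5.85, 3.13 and 4.00 in the controls and 2.97, 4.45 and 3.69 in the juice arrays. Control replicate 1 stood 4.87-fold above the mean of the other controls, while in its counterpart cype the same array lay below them by -0.28 on the log2 scale. The difference of -0.62 (-2.24 to 0.99; limma's adjusted p = 0.938) turned to 0.14 without control replicate 1.

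COX5BL and COX5B lie close together on chromosome arm 2L, with 1 protein-coding gene start between them. COX5BL measured 5.58, 3.86 and 4.93 in the controls and 4.14, 5.11 and 4.48 in the juice arrays. In the controls its highest array was replicate 1 and its lowest replicate 2, whereas COX5B was highest in replicate 2. The difference was -0.21 (-1.26 to 0.83), against 0.52 in COX5B. COX4L measured 4.50, 2.99 and 3.43 in the controls and 2.96, 3.99 and 3.33 in the juice arrays, a difference of -0.21 against 0.40 in COX4.

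COX6AL2 measured 4.39, 2.98 and 3.10 in the controls and 3.26, 3.82 and 3.33 in the juice arrays. Its difference of -0.02 turned to 0.01 after quantile normalization and to 0.02 with equal array medians. COX7AL, which lies near COX7A on 3R, measured 3.33, 2.13 and 2.86 in the controls and 2.29, 3.05 and 2.36 in the juice arrays. In COX6CL, COX5BL, COX4L, COX6AL2 and COX7AL alike, control replicate 1 was the highest array and juice replicate 2 the highest juice array.

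**Figure D4:**
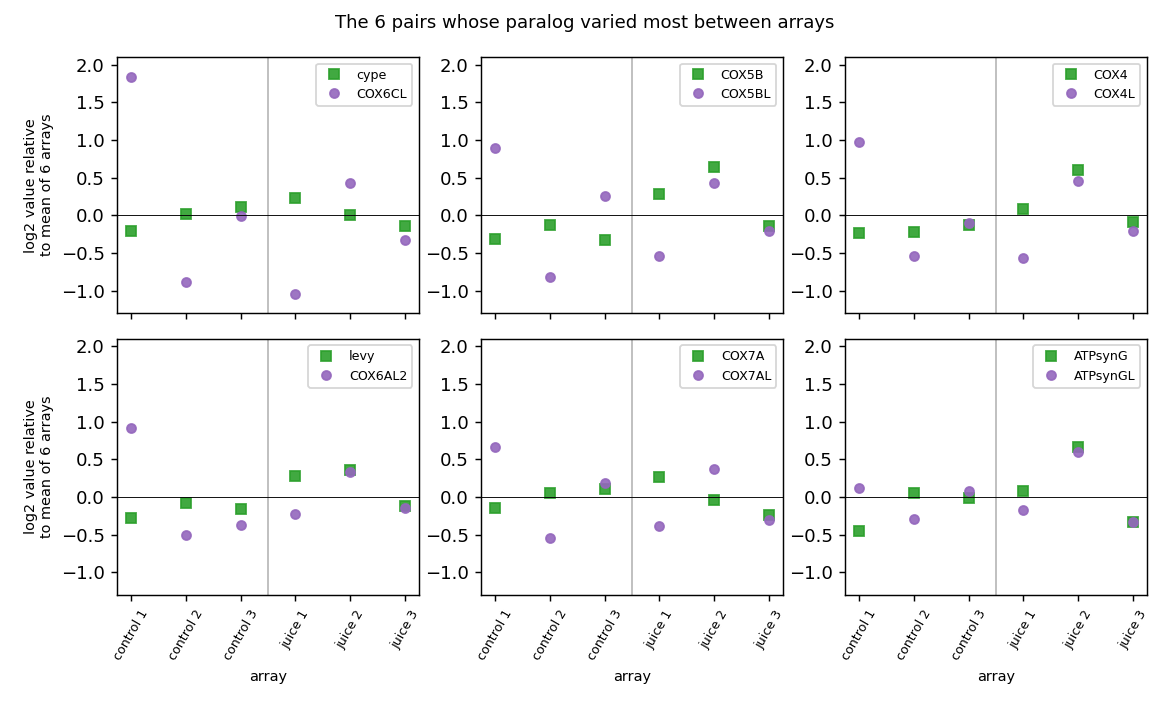
Log2 value in every array, relative to the mean of all 6 arrays, of the 6 L paralogs with the widest range (circles) and their counterparts (squares). In 5 of these pairs the paralog was highest in control replicate 1, where its counterpart lay below its own mean. ATPsynGL and ATPsynG were both highest in juice replicate 2. Choosing by range favours genes that peak in an array standing apart, as control replicate 1 did. Over all 14 L paralogs control replicate 1 was the highest array in 8, against 20.1% of all tested genes.

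The other paralogs lay near the dim end of the scale and varied less. ATPsynGL measured 2.93, 2.51 and 2.88 in the controls and 2.63, 3.41 and 2.47 in the juice arrays, with the same highest array as ATPsynG. ATPsynCF6L measured 3.23, 2.56 and 2.97 and then 2.80, 2.99 and 2.75. ATPsynbetaL, which the gene table also lists under a male-sterile name, measured 2.84, 2.69 and 2.85 and then 2.54, 2.92 and 2.67, a difference of -0.08 against 0.50 in ATPsynbeta. In these 3 genes the groups overlapped.

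UQCR-11L measured 2.65, 3.06 and 2.57 in the controls and 3.10, 2.42 and 2.42 in the juice arrays, and COX6AL 2.82, 2.59 and 2.73 and then 2.43, 2.88 and 2.88. In neither gene was control replicate 1 the highest array. ATPsynepsilonL differed by -0.14 (-0.47 to 0.19), and its counterpart is not among the 44 genes. UQCR-14L, UQCR-6.4L and COX7AL2 fell among the dimmest 25% of genes and were not tested. UQCR-14L measured 2.36, 2.29 and 2.43 in the controls and 2.47, 2.62 and 2.44 in the juice arrays, and UQCR-6.4L 2.84, 2.41 and 2.42 and then 2.45, 2.57 and 2.37. COX7AL2, at 2.05, 1.99 and 2.02 and then 2.02, 2.07 and 2.01, was the dimmest and flattest of all.

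The mean over testis marker genes put the arrays in the same order as the mean over the L paralogs. Of 31 listed, 27 had a row of their own and 20 passed the filter. A lower juice mean was seen in 24 of 27, against 55.1% of all tested genes. Control replicate 1 was the highest array in 22, and in 20.1% of all tested genes. Their mean log2 level was 4.59, 3.46 and 3.83 in the controls and 3.47, 3.87 and 3.73 in the juice arrays. For the L paralogs these means were 3.44, 2.71 and 2.98 and then 2.75, 3.20 and 2.85. In both, control replicate 1 was highest, juice replicate 2 second and control replicate 3 next, and control replicate 2 was lowest. Single markers did not all do so. The markers with the smallest unadjusted p, Prosalpha6T, fzo and mia, differed by -0.57 ± 0.23, -0.66 ± 0.35 and -0.29 ± 0.17 (SE; limma's adjusted p = 0.931 for each). In fzo, at 6.74, 6.22 and 6.56 in the controls and 6.42, 5.03 and 6.09 in the juice arrays, and in mia, juice replicate 2 was the lowest array, as in 5 of the 27 markers. In achi control replicate 3 was the highest. S-Lap2 ran from 5.82 to 8.74 and betaTub85D from 5.49 to 7.96, both highest in control replicate 1 and next in juice replicate 2, while can, aly and comr were near the dim end. The part of the testis in the values of the L paralogs was not tested.

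Muscle, a tissue rich in mitochondria, was followed by 12 of 17 listed marker genes. Their mean level was 8.86, 9.09 and 8.69 in the controls and 9.63, 9.19 and 8.88 in the juice arrays, and 9 of 12 had a higher juice mean, with 7 at unadjusted p under 0.05 (limma; 2.68% of all tested genes were higher at that p). Juice replicate 1 was their highest array in 9 of 12, where it was the highest for 9 of the 30 subunits and for 9.81% of all tested genes. The myosin light chain genes Mlc1 and Mlc2 differed by 0.60 ± 0.18 and 0.65 ± 0.19 (SE; limma's adjusted p = 0.931 for both). The lower juice means were those of sls, bt and Act87E, with differences of -0.22, -0.14 and -0.09. In juice replicates 1 and 2 bt measured 10.18 and 7.88, and sls 8.14 and 6.23. Swings this wide weigh on the mean levels above. The part of muscle in the values of the subunits was not tested.

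**Figure D5:**
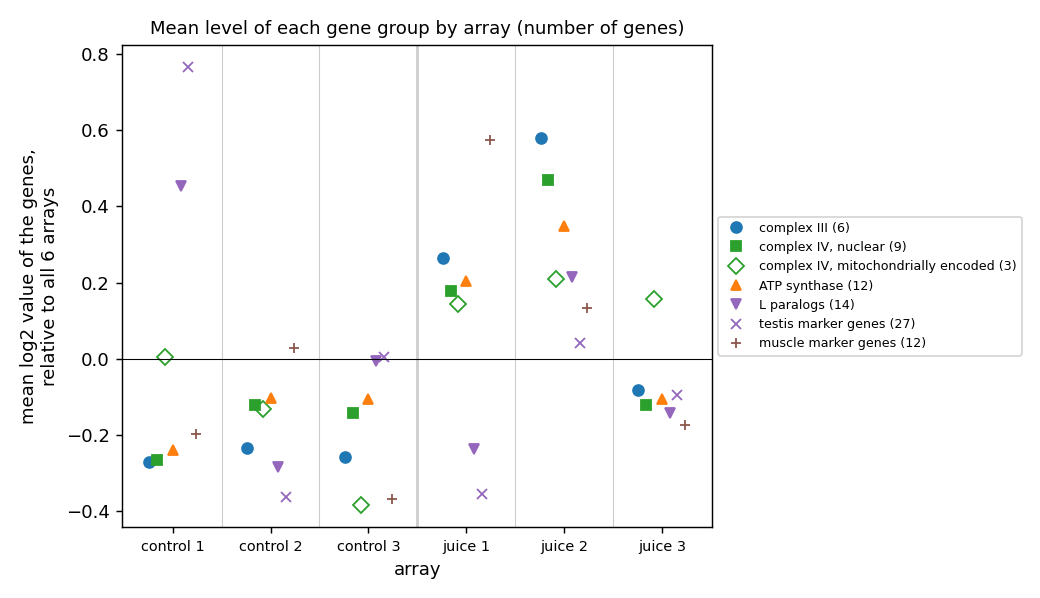
Mean log2 value per array, relative to all 6 arrays, of the genes of each complex, the L paralogs and the testis and muscle markers; the number of genes stands in brackets. The nuclear subunits peak in juice replicate 2, at 0.58 in complex III, and the muscle markers in juice replicate 1, also at 0.58. The muscle mean includes sls and bt, whose values swung widely between these arrays. The testis markers and L paralogs peak in control replicate 1, at 0.77 and 0.45.

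In complex I, 27 of 33 nuclear genes had a higher juice mean, with a median of 0.25. Without its 5 L paralogs, 26 of 28 were higher, with a median of 0.28, and 4 of 27 tested were at unadjusted p under 0.05 and higher (limma), against 2.68% of all tested genes. Of the 5 L paralogs, 1 was higher, and the median was -0.08. Control replicate 1 was the highest array in 5 of 5, against 20.1% of all tested genes. In complex II 3 of 6 genes were higher. Its subunit genes SdhB, SdhC and SdhD differed by 0.26, 0.08 and 0.37 and the L paralogs SdhBL, SdhAL and SdhCL by -0.25, -0.13 and -0.16. None of the 4 tested was at that p, and SdhAL and SdhCL were not tested, being among the dimmest 25% of genes. Of 7 assembly and copper delivery factors, 4 had a higher juice mean. The copper chaperone gene Cox17, which supplies complex IV, differed by 0.53 ± 0.21 (SE; limma's adjusted p = 0.931). It measured 5.75, 5.93 and 5.60 in the controls and 6.30, 6.64 and 5.93 in the juice arrays, the same order of juice arrays as in Cyt-c1. CG3803 differed by 0.31 ± 0.15 and Cox10 by 0.20 ± 0.17.

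Of 7 carriers and channels that feed ATP synthase and release its product, 4 had a higher and 3 a lower juice mean. Mpcp1, a phosphate carrier, differed by 1.90 ± 0.42 (SE; limma's adjusted p = 0.931), while its relative Mpcp2 differed by 0.17 ± 0.12. The adenine nucleotide carrier gene sesB measured 7.41, 7.43 and 7.21 in the controls and 7.89, 7.88 and 7.72 in the juice arrays, with no overlap and a difference of 0.48 ± 0.14 (limma's adjusted p = 0.931). The outer membrane channel gene porin differed by 0.34 ± 0.14. The lower means were those of Ant2 (-0.25 ± 0.25), CG13551 (-0.12 ± 0.22) and Porin2 (-0.09 ± 0.40). Regulators of mitochondrial biogenesis did not share a direction: 4 of 7 were higher, with a median of 0.05. Of these, mtTFB2, a mitochondrial transcription factor, differed by -0.44 ± 0.20, ERR by 0.21 ± 0.13 and PolG1 by 0.21 ± 0.15, and none was at unadjusted p under 0.05.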

How the data were processed

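RNA of 6 pools of whole larvae was measured on single-channel Affymetrix arrays. The authors deposited log2 expression values, 1 per array row; RMA in Affymetrix Expression Console 1.4.0.38 was used, per the submitters' processing notes. Array medians ran from 3.60 to 3.77. Of 16322 rows, 13441 had 1 gene; the brightest row per gene was kept, and names follow the RefSeq table of Release 6 plus ISO1 MT. The dimmest 25% of genes by mean over all arrays (below 2.63) were left out of the test, which took 10051 genes, 39 of 44 members among them. The test was limma 3.58.1 (lmFit, then eBayes; R 4.3.3) without covariates, with the Benjamini-Hochberg adjustment taken over the 10051 genes. The fit was tested on simulated data with independent normal values and no arrays standing apart, unlike the arrays here. Intervals are 95% intervals from the moderated standard error. The p-values reflect the spread among pools alone, which may in part be technical, and 3 arrays a group limit the precision. Levels of different rows are not comparable, since probes differ.

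The members and lists were chosen with earlier results of these data known. Array values were printed, in each complex, for the 4 tested members with the smallest unadjusted p, the brightest member and the one with the lowest difference, and for L paralogs with their counterparts; from other lists up to 3 genes with the smallest unadjusted p were named. Added after their values were seen were blw, COX7C, CYTB, ATP6, ND3, the complex II genes, Mpcp2, Ant2, CG13551 and Porin2. So were achi, S-Lap2, betaTub85D, can, aly, comr, sls, bt, Act87E, the larval organ markers and the further members with a difference only. Alternatives were each array left out, a block for replicate numbers, and other filters, scalings and variance models, and averaged rows.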

Additional observations from a re-analysis of the deposited data

How the results depend on the processing

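With 1 array left out, the number of genes past adjusted p under 0.05 ran from 0 to 4, the number at unadjusted p under 0.05 from 181 (without control replicate 3) to 750 (without juice replicate 1), and the members at that p from 2 to 12. No member was among the 4 genes called without juice replicate 3. Members at unadjusted p under 0.05 were 5 without moderation, beside 399 of all tested genes. They were 2, beside 454 of all tested genes, when both control replicate 1 and juice replicate 2 were dropped. That setting was chosen after seeing the data, and in it the median of complex IV was 0.19. Of the genes at unadjusted p under 0.05, 57.2% were higher; quantile normalization raised this to 71.0% and setting array medians equal to 76.9%. Members at that p were 11 under both scalings, beside 479 and 472 of all tested genes. The replicate number as a block gave 0 genes past adjusted p. At unadjusted p under 0.05 it gave 484 of all tested genes and 9 members. Deviations from the group mean correlated by -0.11, -0.07 and -0.08 between arrays of the same number. With 3 arrays a group, these correlations cannot decide whether the number pairs the arrays.

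The differences of 30 members were followed under the alternatives, and 434 of 470 kept their direction. Of these 30, 12 turned under at least 1 alternative. With 1 array left out the median of the L paralogs ran from -0.17 to 0.078, and differences that turned ran from -0.25 to 0.085 in ATPsynCF6L, -0.23 to 0.245 in ATPsynGL, -0.54 to 0.22 in COX4L, -0.68 to 0.18 in COX5BL, -0.062 to 0.17 in COX6AL, -0.28 to 0.43 in COX6AL2, -1.22 to 0.14 in COX6CL, -0.15 to 0.11 in COX7A, -0.53 to 0.070 in COX7AL, -0.34 to 0.038 in UQCR-11L and -0.040 to 0.15 in cype. Without control replicate 1 and juice replicate 2 together, ATPsynCF6L turned to 0.014, ATPsynG to -0.15, ATPsynGL to -0.15, COX6AL to -0.0092, COX6AL2 to 0.25 and cype to -0.022. Array weights turned ATPsynGL to -0.10, COX6AL2 to 0.045 and cype to -0.027. Quantile normalization and equal array medians turned COX6AL2 to 0.0077 and 0.023 and COX7A to 0.011 and 0.036. The cause was not tested.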

Other observations

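Paralogs of neighbouring mitochondrial proteins outside the 44 genes were also highest in control replicate 1. SdhBL, a second copy of the iron-sulfur subunit of complex II, measured 6.15, 3.95 and 4.35 in the controls and 4.07, 5.01 and 4.62 in the juice arrays. Its counterpart SdhB measured 7.24, 7.37 and 7.28 and then 7.66, 7.82 and 7.20. Porin2, a relative of the outer membrane channel gene porin, measured 5.04, 3.31 and 4.21 in the controls and 3.90, 4.32 and 4.07 in the juice arrays. Ant2, the neighbour of sesB, measured 3.60, 2.65 and 2.91 and then 2.69, 2.83 and 2.89. In all 3, control replicate 1 was the highest and control replicate 2 the lowest control array, as in COX6CL and COX5BL. These genes were chosen after their values were seen, and no test was made of the pattern.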
